A study of Mus musculus with 30 samples.

Results

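The genes described here are 31 genes that macrophages and microglia use, out of 55385 genes in the deposited tables. They were picked by symbol and cover the growth factor receptor and transcription factor of the lineage, Fc receptors and their adaptors, the C1q chains, integrins, scavenger receptors, antimicrobial genes, lysosomal genes, pan-leukocyte genes and microglial genes. RNA was sequenced from kidney and retina of mice aged 16 weeks that carried either normal Lepr, Lepr(+/+), or the Lepr(db/db) mutation, which removes the signalling form of the leptin receptor and leads to obesity and hyperglycemia. Each Lepr genotype was combined with wild-type Camk2d or with a global Camk2d knockout (KO), so that every tissue of the KO mice lacked the gene and not macrophages alone. The 4 groups per organ are called WT_ndb (wild type, non-diabetic), WT_db (wild type, diabetic), KO_ndb and KO_db, and the study asks what diabetes and Camk2d loss each change in these organs. The kidney had 4 libraries in every group, and the retina had 3, 4, 4 and 3 in WT_ndb, WT_db, KO_ndb and KO_db. The sample titles hold 21 different numbers, 9 of which occur in both organs. They were read here as animal numbers, which the labels do not state, and a library is named by K for kidney or R for retina and its number. Strain and sex are not given in the labels, and by sex-linked transcripts 15 libraries were male and 15 female.

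Macrophages settle in nearly every organ, where they clear dead cells, take up antibody-coated particles through Fc receptors and make complement C1q. In the kidney they lie in the interstitium between tubules and are partly replaced by blood monocytes. Microglia are the resident macrophages of the brain and retina; they come from the yolk sac, and like other macrophages they depend on signalling through the CSF1 receptor and on the transcription factor PU.1. These were whole-organ RNA samples, so fewer cells of a type and less RNA per cell cannot be told apart.

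In short, the wild-type diabetic kidney had the lowest level of most of these genes of the 4 kidney groups. Of 29 members that could be tested in kidney, 11 fell with diabetes in wild-type mice, against 4.49% of all tested genes, and none rose. With a list of fat cell genes as a covariate none of these falls was called, and with the 3 fat markers Adipoq, Plin1 and Cidec only that of Csf1r was. The share of all genes called with these covariates is not given here, so the loss need not be particular to the members. In diabetic KO 22 members were higher than in diabetic wild-type kidney, against 10.7% of all tested genes, and none lower. No member passed the test for diabetes within the KO kidney or for the knockout within the non-diabetic kidney, where 0.077% and 0.435% of all genes were called. The direct edgeR test of whether diabetes changed a member differently in KO than in wild-type kidney called none of the 29 (smallest adjusted p = 0.0714). A different response by genotype was therefore not shown by that test. In retina 3 of 27 tested members fell with diabetes in wild-type mice, against 1.19% of all tested genes, and none was called for the knockout.

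Deposited totals ran from 19870485 to 22643055 expected counts per library. Levels of one gene across libraries are given as CPM, the share of counts per library on a fixed scale, adjusted within each organ by the trimmed mean of M values, and levels of different genes are compared only in TPM, the same idea corrected for transcript length. A member was called where the edgeR quasi-likelihood test, adjusted by Benjamini-Hochberg over all tested genes of the organ, gave a p under 0.05. As a check of the labels, Camk2d in kidney ran from 10.3 to 19.8 CPM with the wild-type gene and from 0.0864 to 0.557 CPM without it. In retina the ranges were 285 to 343 and 3.09 to 4.25 CPM, so every library matched its Camk2d label. The Lepr label could not be checked library by library: the diabetes difference of Lepr was -1.24 ± 0.31 in wild-type kidney (adjusted p = 0.024) and -1.53 ± 0.31 in KO kidney (adjusted p = 0.0986), and -0.50 ± 0.43 (adjusted p = 0.568) and -0.01 ± 0.46 (adjusted p = 0.997) in retina. Nothing in the labels gives a sequencing batch. Slc34a1, of the proximal tubule, was at 2608 to 7263 CPM in kidney and at most 0.494 CPM in retina. The defining kidney macrophage and microglial genes were detected: Csf1r, C1qa and Cx3cr1 were above 0 in every library of both organs.

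Promoter sequence from RefSeq (GRCm38.p6) was matched for 23 of the 31 members, as windows of 250 bases before to 50 bases after the annotated start. PU.1, the product of Spi1, binds sites with a GAGGAA core, and the windows were searched for GAGGAA on both strands. Of the 23 genes, 15 (65.2%) had at least 1 match, against 31.3% of 27025 genes with windows of the same length. The longer GAGGAAGT, which contains the first motif, was in 3 of 23 genes (13%), namely C1qc, Cd53 and Ctss, against 3.69% of all genes. The TATA box letters TATAAA were in 3 of 23 genes (13%) against 15.7% of all. These are matches of letters and not measured binding. Below, 5 promoters with a match and 2 without, all of genes whose kidney values are described, are printed in the direction of transcription, with GAGGAA or its reverse complement TTCCTC in capitals.
C1qb, chr4:136886151-136886450, minus strand: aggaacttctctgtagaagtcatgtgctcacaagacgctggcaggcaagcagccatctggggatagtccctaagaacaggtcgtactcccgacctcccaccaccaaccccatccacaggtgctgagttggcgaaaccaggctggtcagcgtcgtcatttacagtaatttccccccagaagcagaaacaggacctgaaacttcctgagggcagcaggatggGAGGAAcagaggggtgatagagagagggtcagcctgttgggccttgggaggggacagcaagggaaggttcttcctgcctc
C1qc, chr4:136892865-136893164, minus strand: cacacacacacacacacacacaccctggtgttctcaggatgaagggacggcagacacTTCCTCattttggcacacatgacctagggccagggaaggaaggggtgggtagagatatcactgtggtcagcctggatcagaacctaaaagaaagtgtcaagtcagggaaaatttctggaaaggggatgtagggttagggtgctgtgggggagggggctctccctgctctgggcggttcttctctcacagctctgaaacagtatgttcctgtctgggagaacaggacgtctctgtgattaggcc
Ctss, chr3:95526536-95526835, plus strand: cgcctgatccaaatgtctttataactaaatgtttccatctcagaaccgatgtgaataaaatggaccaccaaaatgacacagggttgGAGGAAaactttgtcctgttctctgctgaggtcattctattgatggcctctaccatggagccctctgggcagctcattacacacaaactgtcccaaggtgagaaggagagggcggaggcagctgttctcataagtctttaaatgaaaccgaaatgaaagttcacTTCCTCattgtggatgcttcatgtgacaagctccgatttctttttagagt
Aif1, chr17:35176003-35176302, minus strand: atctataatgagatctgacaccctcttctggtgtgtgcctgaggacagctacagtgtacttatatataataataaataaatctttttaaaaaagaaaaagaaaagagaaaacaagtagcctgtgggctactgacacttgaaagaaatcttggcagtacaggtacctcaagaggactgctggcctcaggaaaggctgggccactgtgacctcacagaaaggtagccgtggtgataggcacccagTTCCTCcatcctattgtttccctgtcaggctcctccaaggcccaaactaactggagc
Laptm5, chr4:130913066-130913365, plus strand: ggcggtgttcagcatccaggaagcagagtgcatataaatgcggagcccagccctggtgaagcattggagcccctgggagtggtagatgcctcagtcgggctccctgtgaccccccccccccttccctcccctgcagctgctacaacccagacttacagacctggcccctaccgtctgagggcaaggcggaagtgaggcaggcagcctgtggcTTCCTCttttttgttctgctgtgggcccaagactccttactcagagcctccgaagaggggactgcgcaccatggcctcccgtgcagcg
Fcer1g, chr1:171234300-171234599, minus strand: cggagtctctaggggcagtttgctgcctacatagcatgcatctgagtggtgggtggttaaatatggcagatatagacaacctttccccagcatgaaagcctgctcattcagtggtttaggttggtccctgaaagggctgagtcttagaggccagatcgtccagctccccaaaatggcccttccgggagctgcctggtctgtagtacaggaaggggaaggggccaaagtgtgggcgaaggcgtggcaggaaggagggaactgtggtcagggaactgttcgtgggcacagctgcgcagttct
Lyz2, chr10:117282223-117282522, minus strand: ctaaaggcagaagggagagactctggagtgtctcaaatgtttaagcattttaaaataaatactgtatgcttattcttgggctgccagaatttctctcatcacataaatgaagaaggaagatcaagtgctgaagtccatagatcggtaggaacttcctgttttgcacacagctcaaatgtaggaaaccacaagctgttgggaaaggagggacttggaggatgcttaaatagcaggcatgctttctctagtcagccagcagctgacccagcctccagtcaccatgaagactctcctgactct
C1qb and C1qc lie beside each other and beside C1qa on the minus strand of chromosome 4. Their windows and those of Ctss, Aif1 and Laptm5 hold the core, while the windows of Fcer1g and Lyz2 do not. All 7 genes are described below as higher in diabetic KO than in diabetic wild-type kidney.

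In non-diabetic wild-type kidney the most abundant member was Fcgr2b, the inhibitory Fc receptor, which B cells and some endothelial cells also make, at 26.6 ± 6.6 TPM (SD, n = 4), or 17.9% of the summed TPM of all members. It was followed by Lyz2, the macrophage lysozyme, at 14.4 ± 9.3 TPM, C1qb at 13.1 ± 6.9 TPM, Fcer1g at 12.6 ± 4.5 TPM, C1qa at 12.6 ± 5.5 TPM and Csf1r at 12.1 ± 5.0 TPM. Neighbours in this order from Lyz2 to Csf1r differed by less than their SD. The hemoglobin scavenger receptor Cd163 at 0.09 TPM, the class A scavenger receptor Msr1 at 0.125 TPM and the microglial ADP receptor P2ry12 at 0.139 TPM were at the bottom. In retina the order was led by the lysosomal protease Ctss at 13.3 ± 1.4 TPM (n = 3), C1qa at 10.1 ± 1.2 TPM and C1qb at 9.4 ± 0.9 TPM, of which C1qa and C1qb differed by less than their SD. There P2ry12 was at 3.29 ± 0.031 TPM and Fcgr2b at 0.433 TPM, and the dendritic cell and macrophage integrin Itgax was listed at 0.013 TPM.

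**Figure D1:**
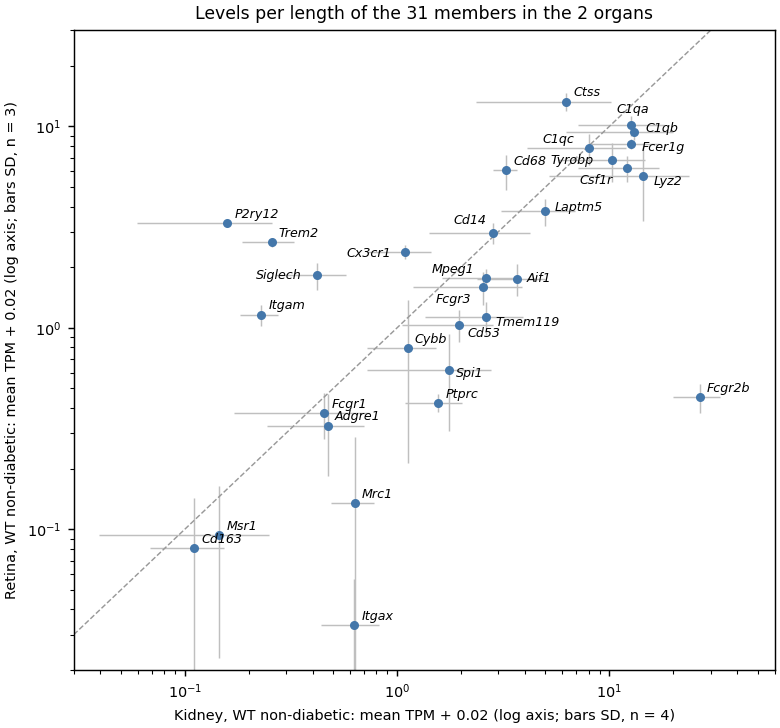
Mean level of each of the 31 genes in non-diabetic wild-type kidney (4 libraries) against non-diabetic wild-type retina (3 libraries), in TPM with a small constant added, on log axes, with SD bars and a diagonal that marks equal levels. Fcgr2b stands at 26.6 TPM in kidney and 0.433 TPM in retina, and P2ry12 at 0.139 TPM in kidney and 3.29 TPM in retina.

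A fit over all 30 libraries compared the organs in WT_ndb mice. After TMM scaling 26 of 31 members were higher in kidney, against 35.8% of all 23021 genes, and 2 were lower, against 38.6%. The result depends on the setting, for a reason that was not tested. On log2(TPM + 1) with limma-trend the median of all genes moved from -0.09 to -1.0. There 9 members were higher and 7 lower in kidney, against 13.8% and 70.5% of all genes. Fcgr2b was higher in kidney by 6.86 ± 0.25 on the log2 scale (SE, adjusted p = 6.97e-19), with 35.9 to 47.0 CPM in the 4 kidneys and 0.590 to 0.792 CPM in the 3 retinas. The leukocyte phosphatase CD45 gene Ptprc was higher in kidney by 4.08 ± 0.33 (adjusted p = 1.38e-11), and Cybb, the catalytic subunit of the phagocyte NADPH oxidase, by 4.05 ± 0.30 (adjusted p = 1.6e-12). In TPM the organs lay closer together for Cybb, at 1.10 ± 0.40 in kidney and 0.77 ± 0.58 in retina (SD). Ptprc was at 1.54 ± 0.47 TPM in kidney and 0.404 ± 0.044 TPM in retina. P2ry12 was lower in kidney, with a log2 difference of -2.76 ± 0.42 (adjusted p = 1.68e-06). On the scale of each organ it was at 0, 0.264, 0.369 and 0.415 CPM in the 4 kidneys and at 3.29, 3.52 and 3.96 CPM in the 3 retinas. Itgam, the CD11b integrin chain of complement receptor 3, was also lower in kidney, by -0.84 ± 0.24 (adjusted p = 0.00283). Tmem119, a microglial marker in brain that bone cells also express, was higher in kidney by 2.83 ± 0.30 (adjusted p = 2.35e-09). Among the members not called, Trem2 and Siglech had log2 differences of -0.34 (adjusted p = 0.243) and -0.34 (adjusted p = 0.44). In TPM the levels of Trem2 lay further apart, at 0.237 ± 0.0706 in kidney and 2.63 ± 0.14 in retina. With the animal as a block, 23 members were higher and 3 lower, against 32.1% and 34.1% of all genes.

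The values of the genes by library are shown next for the kidney, where they moved most.

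**Figure D2:**
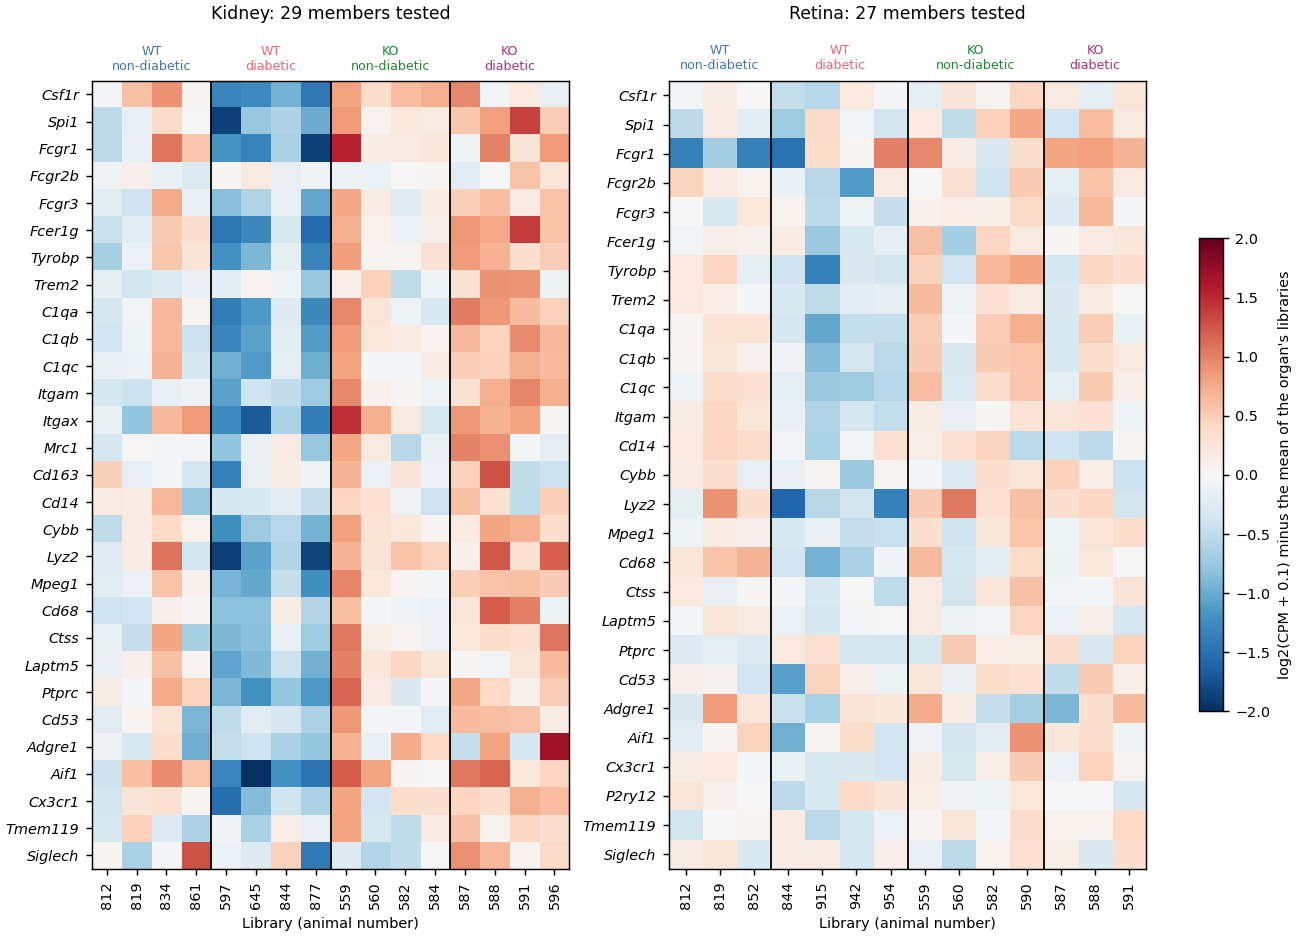
Log2(CPM + 0.1) of each tested member in each library, minus the mean of that gene over the libraries of the same organ, with genes ordered by role and libraries by group. In kidney the 4 WT_db libraries are the lowest block for most genes, and in retina the differences are smaller.

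Csf1r, the receptor for the growth factors CSF1 and IL-34 that keeps macrophages and microglia alive, was at 34.2, 52.4, 65.4 and 35.9 CPM in the 4 WT_ndb kidneys and at 14.0, 14.4, 18.0 and 12.9 CPM in the 4 WT_db kidneys. The KO_ndb kidneys had 61.3, 45.0, 53.4 and 57.8 CPM and the KO_db kidneys 67.8, 33.7, 39.9 and 31.4 CPM. All 4 WT_db kidneys lay below all 12 others. With diabetes in wild-type mice Csf1r fell by 1.66 ± 0.25 on the log2 scale (SE, adjusted p = 0.00244), and in diabetic mice it was higher in KO than in wild type by 1.54 ± 0.25 (adjusted p = 0.00255). Csf1r shares 14.6% of its 31-base words with the neighbouring gene model Hmgxb3, which was at 12.4 to 19.4 CPM in WT_db and 13.3 to 22.8 CPM in WT_ndb and had differences of 0.06 ± 0.23 (adjusted p = 0.877) and -0.30 ± 0.24 (adjusted p = 0.345) in the same tests. In retina Hmgxb3 was above Csf1r, at 34.1 to 48.3 CPM. Both tests use the same WT_db kidneys, so they are not independent of each other, and this holds for every member below. Spi1, the gene of PU.1, was at 1.63 to 3.16 CPM in WT_ndb, 0.584 to 1.53 in WT_db, 2.50 to 4.40 in KO_ndb and 3.41 to 6.28 in KO_db. It passed the test between KO_db and WT_db (log2 difference 1.91 ± 0.32, adjusted p = 0.0028), while its wild-type diabetes difference was -1.01 ± 0.32 (adjusted p = 0.0625).

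Over the 29 members tested in kidney, 11 fell with diabetes in wild-type mice against 4.49% of all 18177 genes called lower, and 0 rose against 2.81%. The members that fell were Csf1r, Fcgr1, Fcer1g, C1qa, Itgax, Cybb, Lyz2, Mpeg1, Laptm5, Ptprc and Aif1. Over all 29 the median log2 difference was -0.89, beside -0.05 over all genes, and 27 were below 0, against 54.1% of all genes. In CPM, 10 members had WT_db kidneys wholly below WT_ndb kidneys, against 9.88% of all genes. Between diabetic KO and diabetic wild-type kidneys 22 members were higher, against 10.7% of all genes, and 0 lower, against 8.99%. There the median was 1.36 beside 0.04 over all genes, and 29 of 29 were above 0, against 52.4% of all genes. In CPM, 20 members had every KO_db kidney above every WT_db kidney, against 8.57% of all genes. Msr1 and P2ry12 were too low to be tested in kidney: Msr1 was at 0.0561 to 0.942 CPM and P2ry12 at 0 to 0.415 CPM over the 16 libraries.

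**Figure D3:**
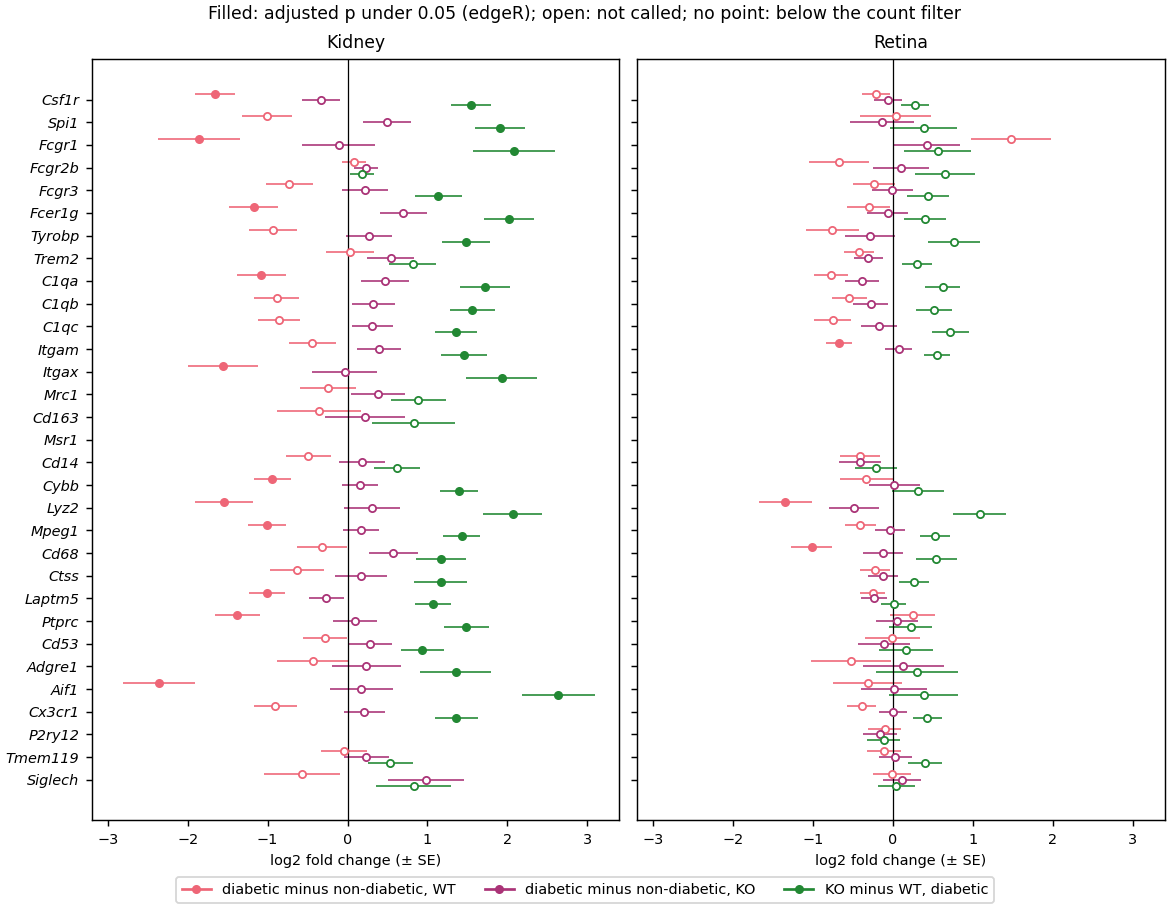
Log2 difference of each tested member with its SE, for diabetes in wild-type mice, diabetes in KO mice and KO against wild type in diabetic mice, in kidney and retina, with filled points for members whose adjusted p was under 0.05. In kidney 11 members are called on the lower side of the first comparison and 22 on the higher side of the third, and in retina 3 are called on the lower side of the first.

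The count of falls in wild-type diabetes changed with single libraries and with a fat covariate. Leaving out 1 library at a time gave 3 to 16 members called, 3 without K597, K645 or K877 of WT_db, 4 without K834 and 7 without K861 of WT_ndb, and 16 without K844 of WT_db, and Csf1r, Ptprc and Aif1 were called each time. The summed CPM of the fat cell genes Adipoq, Plin1 and Cidec was 243 in K812, 59.8 in K819 and 11.6 in K861 of WT_ndb, with K834 between the last pair, 0.704 to 15.1 in WT_db, 0.491 to 56.7 in KO_ndb and 0.544 to 13.7 in KO_db, and 7 of 12 fat cell genes tested also fell. With a list of fat cell genes as a covariate edgeR called 0 members, and 11 were at an unadjusted p under 0.05. The list also holds genes such as Pck1 and Acaca, and whether it measures fat alone in kidney was not tested. With Adipoq, Plin1 and Cidec as the covariate edgeR called only Csf1r (adjusted p = 0.0447). The share of all genes called with these covariates is not given here. Under the list covariate the differences were -1.61 ± 0.34 for Csf1r (adjusted p = 0.0551), -2.15 ± 0.59 for Aif1 (adjusted p = 0.111) and -1.05 ± 0.35 for Ptprc (adjusted p = 0.185). WT_ndb kidney K861, whose fat signal lay within the WT_db range, had Csf1r at 35.9, Ptprc at 8.07 and Aif1 at 1.57 CPM. For these 3 genes WT_db lay below all WT_ndb kidneys, so K861 had to lie above every WT_db kidney. K861 also had the highest mitochondrial share of the WT_ndb kidneys, 36.4%. The part of fat tissue in the member values was not tested. KO against wild type in diabetic mice gave 22 calls under either covariate and 15 to 23 when 1 library was left out, with 15 members called each time. The share of counts from mitochondrial genes was 22.2% to 45.4% in KO_db and 24.5% to 26.1% in WT_db, and with it as a covariate 19 of the 22 were called. For left-out libraries and this covariate too, the share of all genes called is not given here.

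**Figure D4:**
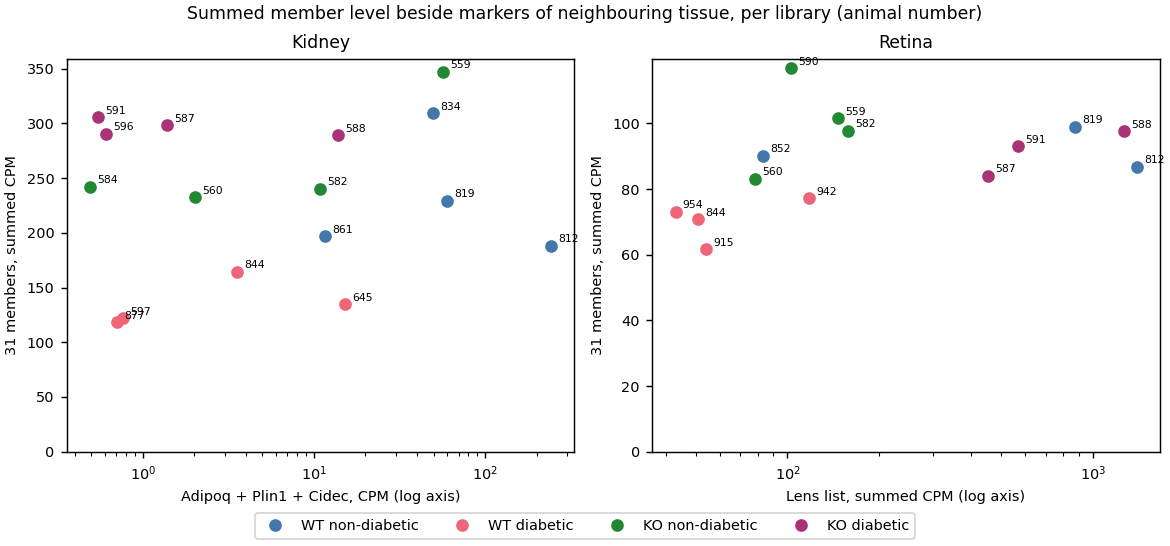
Summed CPM of the 31 members in each library beside the summed CPM of fat cell genes in kidney and of lens genes in retina. The member sum lies at 188 to 309 CPM in WT_ndb, 118 to 164 in WT_db, 233 to 347 in KO_ndb and 289 to 305 in KO_db kidneys.

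The Fc receptors and their adaptors had 6 tested members, of which 2 fell in wild-type diabetes and 4 were higher in diabetic KO than in diabetic wild-type kidney. Fcer1g, the gamma chain that carries the signal of several activating Fc receptors, was at 4.67, 5.51, 9.14 and 7.96 CPM in WT_ndb, 2.25, 2.55, 5.15 and 2.11 in WT_db, 10.6, 6.72, 5.85 and 6.92 in KO_ndb and 11.7, 10.8, 17.0 and 9.55 in KO_db. One WT_db kidney, K844, overlapped the WT_ndb range, and every KO_db kidney was above every WT_ndb and WT_db kidney. Fcer1g fell by 1.17 ± 0.31 with diabetes in wild type (adjusted p = 0.0324) and was higher by 2.02 ± 0.31 in diabetic KO (adjusted p = 0.00207). Fcgr1, the high-affinity IgG receptor CD64, was low throughout: 0.484, 0.663, 1.68 and 1.12 CPM in WT_ndb, 0.269, 0.236, 0.437 and 0.132 in WT_db and 0.692 to 1.58 in KO_db. It fell by 1.85 ± 0.51 (adjusted p = 0.04) and was higher by 2.08 ± 0.51 in diabetic KO (adjusted p = 0.019), with no overlap of WT_db with either group. Fcgr3, a low-affinity activating receptor, and Tyrobp, the adaptor DAP12, were called only between KO_db and WT_db, at 1.14 ± 0.29 (adjusted p = 0.0222) and 1.48 ± 0.30 (adjusted p = 0.00805). Fcgr3 shares 13.4% of its 31-base words with Fcgr2b, whose level was far above it in kidney (group means of 41.1 to 49.4 against 1.85 to 4.07 CPM), so its low values are uncertain.

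Fcgr2b, the only inhibitory receptor of the set, was the most abundant member and passed neither test. It was at 41.7, 47.0, 39.8 and 35.9 CPM in WT_ndb, 44.6, 49.4, 39.1 and 41.2 in WT_db, 40.7, 40.1, 43.5 and 44.4 in KO_ndb and 37.3, 43.8, 65.0 and 51.7 in KO_db. All 4 groups overlapped, and the log2 differences were 0.08 ± 0.15 for wild-type diabetes (adjusted p = 0.726) and 0.18 ± 0.15 for diabetic KO (adjusted p = 0.369). Its difference from the other Fc receptors was not tested. Trem2, the lipid-sensing receptor that signals through DAP12, was at 0.704 to 1.32 CPM in WT_db and 1.17 to 2.44 in KO_db, a difference of 0.82 ± 0.29 (adjusted p = 0.0583).

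The C1q chains assemble into the molecule that starts the classical complement pathway. C1qa was at 8.41, 10.3, 16.9 and 11.1 CPM in WT_ndb, 4.00, 4.81, 8.99 and 4.31 in WT_db, 21.1, 12.7, 10.2 and 8.64 in KO_ndb and 22.0, 19.6, 16.6 and 14.8 in KO_db. WT_db kidney K844 was again the high one of its group and reached the WT_ndb range, while all KO_db kidneys lay above all WT_db kidneys. C1qa fell by 1.08 ± 0.31 with wild-type diabetes (adjusted p = 0.045), and C1qb and C1qc had differences of -0.89 ± 0.28 (adjusted p = 0.0624) and -0.86 ± 0.26 (adjusted p = 0.058). In diabetic KO against wild type all 3 were higher, C1qa by 1.72 ± 0.31 (adjusted p = 0.00484), C1qb by 1.56 ± 0.28 (adjusted p = 0.00463) and C1qc by 1.35 ± 0.26 (adjusted p = 0.0069).

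Both complement receptor integrins were higher in diabetic KO than in diabetic wild-type kidney. Itgax, the CD11c chain found on dendritic cells and some macrophages, was at 1.67, 1.04, 2.99 and 3.48 CPM in WT_ndb, 0.718, 0.519, 1.18 and 0.660 in WT_db, 5.31, 3.14, 2.13 and 1.47 in KO_ndb and 3.50, 3.08, 3.32 and 1.90 in KO_db. It fell by 1.56 ± 0.44 with wild-type diabetes (adjusted p = 0.0433) and was higher by 1.93 ± 0.44 in diabetic KO (adjusted p = 0.014). Itgam was at 0.494 to 0.849 CPM in WT_db and 1.43 to 2.36 in KO_db, higher by 1.45 ± 0.29 (adjusted p = 0.00757), and its wild-type diabetes difference was -0.44 ± 0.29 (adjusted p = 0.325). Only 31.7% of the 31-base words of Itgam are unique to it, because the readthrough gene model Gm49368 shares 67.2%, but that model held at most 0.251 CPM.

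Of 4 genes of pattern recognition and microbe killing, 3 fell in wild-type diabetes and the same 3 were higher in diabetic KO. Lyz2 was at 11.9, 15.5, 30 and 10.8 CPM in WT_ndb, 3.77, 6.61, 9.17 and 3.83 in WT_db, 22.5, 16.8, 20.8 and 19.0 in KO_ndb and 15.0, 33.4, 17.3 and 32.1 in KO_db. Every WT_db kidney was below every other kidney; Lyz2 fell by 1.55 ± 0.37 (adjusted p = 0.0194) and was higher by 2.07 ± 0.37 in diabetic KO (adjusted p = 0.00448). The sister lysozyme Lyz1 shares 32.8% of its 31-base words and held at most 0.41 CPM. Cybb fell by 0.94 ± 0.23 (adjusted p = 0.0244) and was higher by 1.39 ± 0.23 in diabetic KO (adjusted p = 0.00296), at 2.16 to 3.45 CPM in WT_db against 3.61 to 6.84 in WT_ndb and 5.79 to 8.99 in KO_db. Mpeg1, the pore-forming perforin-2 of macrophages, fell by 1.01 ± 0.23 (adjusted p = 0.0179) and was higher by 1.43 ± 0.23 in diabetic KO (adjusted p = 0.00269). Cd14, the co-receptor for bacterial lipopolysaccharide, passed neither test, with differences of -0.49 ± 0.29 (adjusted p = 0.269) and 0.62 ± 0.29 (adjusted p = 0.121).

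**Figure D5:**
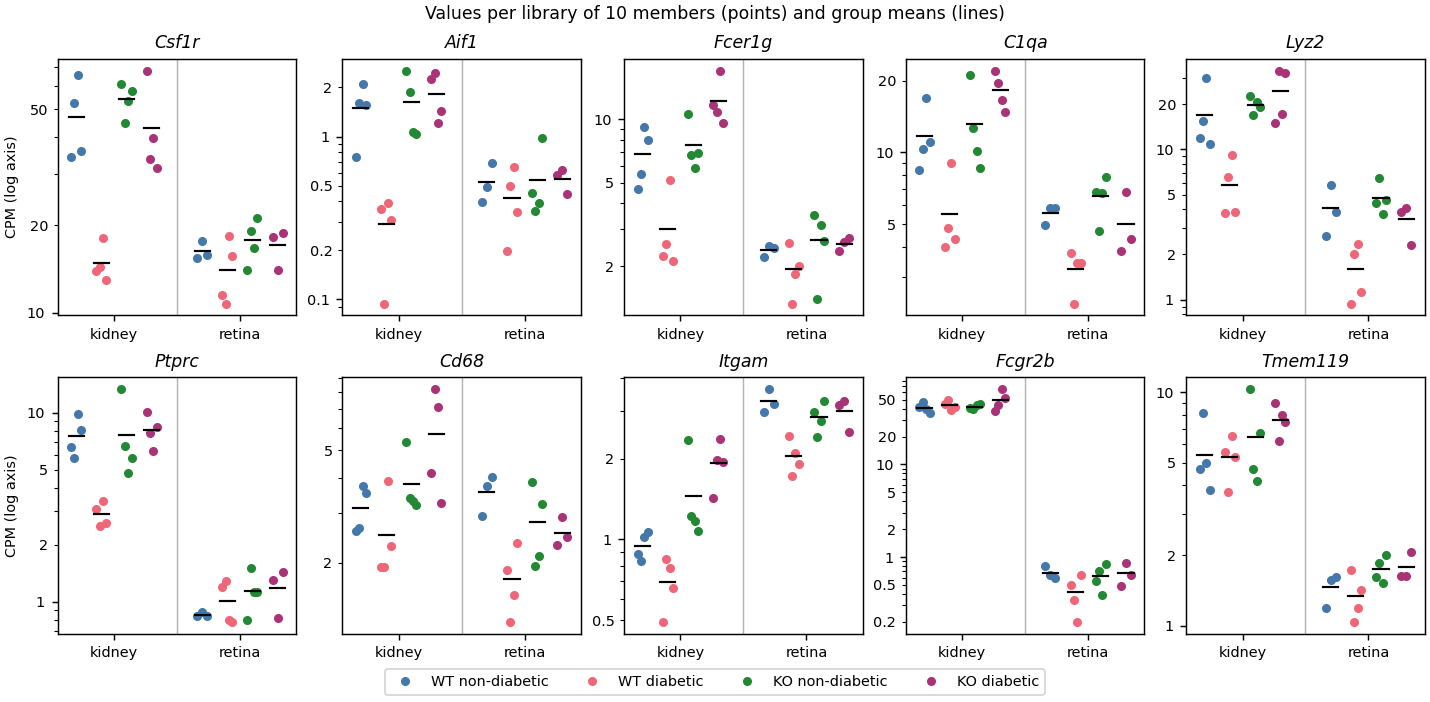
CPM of 10 members in every library of the 8 groups, on log axes, with 1 point per library and a bar at the group mean. In kidney the WT_db points of Csf1r, Lyz2, Ptprc and Aif1 lie below all points of WT_ndb and KO_db, and those of Fcgr2b overlap with all groups.

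The lysosomal genes gave 1 fall and 3 higher values in diabetic KO. Laptm5, a lysosomal membrane protein of blood cells, was at 9.60, 11.3, 15.9 and 10.9 CPM in WT_ndb, 4.98, 5.61, 7.73 and 5.33 in WT_db and 10.7, 10.1, 12.4 and 16.3 in KO_db, with WT_db below both. It fell by 1.01 ± 0.22 (adjusted p = 0.0144) and was higher by 1.07 ± 0.22 in diabetic KO (adjusted p = 0.00971). Cd68, the lysosomal glycoprotein often stained to count macrophages, was at 2.60 to 3.73 CPM in WT_ndb and 1.93 to 3.89 in WT_db, which overlapped, with a difference of -0.31 ± 0.31 (adjusted p = 0.514). In diabetic KO it was higher by 1.17 ± 0.31 (adjusted p = 0.0242), at 3.24 to 8.22 CPM, where KO_db overlapped WT_db. Ctss was higher there by 1.17 ± 0.33 (adjusted p = 0.0299).

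Among the leukocyte genes, Aif1, the actin-binding protein IBA1 that is a usual stain for microglia, had the largest differences of the 29 members in both comparisons. It was at 0.748, 1.62, 2.09 and 1.57 CPM in WT_ndb, 0.359, 0.0944, 0.393 and 0.308 in WT_db, 2.53, 1.87, 1.06 and 1.03 in KO_ndb and 2.25, 2.44, 1.21 and 1.43 in KO_db. All WT_db kidneys lay below all 12 others, and Aif1 fell by 2.35 ± 0.45 (adjusted p = 0.00789) and was higher by 2.64 ± 0.45 in diabetic KO (adjusted p = 0.00361). Ptprc, which every leukocyte carries, was at 6.56, 5.72, 9.88 and 8.07 CPM in WT_ndb, 3.10, 2.50, 3.41 and 2.60 in WT_db, 13.3, 6.63, 4.79 and 5.74 in KO_ndb and 10.1, 7.79, 6.28 and 8.34 in KO_db. It too had WT_db below all 12 others, falling by 1.38 ± 0.29 (adjusted p = 0.0113), and was higher by 1.49 ± 0.29 in diabetic KO (adjusted p = 0.00656). The tetraspanin gene Cd53 and Adgre1, which encodes the mouse macrophage antigen F4/80, were called only between KO_db and WT_db, at 0.94 ± 0.27 (adjusted p = 0.0313) and 1.35 ± 0.44 (adjusted p = 0.0449). For Adgre1 KO_db overlapped WT_db, at 0.995 to 4.75 CPM against 0.792 to 1.04 CPM.

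The scavenger receptors did not pass either test: the mannose receptor Mrc1 had differences of -0.24 ± 0.35 (adjusted p = 0.656) and 0.88 ± 0.34 (adjusted p = 0.0746), and Cd163 of -0.36 ± 0.53 (adjusted p = 0.665) and 0.83 ± 0.51 (adjusted p = 0.236). Of the microglial genes, the fractalkine receptor Cx3cr1, which kidney macrophages and dendritic cells also carry, was at 2.99 to 4.79 CPM in WT_ndb, 1.30 to 2.92 in WT_db and 4.92 to 6.41 in KO_db. It was higher in diabetic KO by 1.36 ± 0.27 (adjusted p = 0.00686) and had a wild-type diabetes difference of -0.90 ± 0.26 (adjusted p = 0.0502). Tmem119 and the sialic acid-binding lectin gene Siglech were not called in either comparison, with -0.04 ± 0.29 (adjusted p = 0.936) and 0.54 ± 0.28 (adjusted p = 0.169) for Tmem119.

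Other genes of these pathways, from lists that overlap the 31 in part, gave the following counts in kidney. Of 6 oxidase genes 4 fell in wild-type diabetes and 5 were higher in diabetic KO, among them Rac2, the leukocyte GTPase that activates the oxidase, at -1.77 ± 0.33 (adjusted p = 0.0072) and 2.06 ± 0.33 (adjusted p = 0.00263). Of 11 C1 and complement receptor genes 3 fell and 8 were higher, and of 9 genes of the TREM2 and DAP12 route 1 fell, 1 rose and 4 were higher. The gene that rose was Apoe, a lipoprotein ligand of TREM2, at 2.16 ± 0.60 (adjusted p = 0.0405). Of 8 monocyte genes 2 fell and 4 were higher; Ccr2, the chemokine receptor of blood monocytes, was at 2.98 to 5.11 CPM in WT_ndb, 0.539 to 1.13 in WT_db, 4.26 to 7.17 in KO_ndb and 2.40 to 4.11 in KO_db, and fell by 2.41 ± 0.28 (adjusted p = 0.000453). Of 8 resident macrophage genes edgeR called 0 in either comparison, with 2 and 3 at an unadjusted p under 0.05 and medians of -0.83 and 0.80. In the CSF1 list 4 of 8 genes were higher in diabetic KO, including the ligand gene Csf1 at 1.09 ± 0.27 (adjusted p = 0.0194), with 5.28 to 7.47 CPM in WT_db and 7.82 to 15.9 CPM in KO_db.

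Markers of other blood cells moved the same way in these kidneys. Of 13 T, NK and B cell genes 10 fell in wild-type diabetes and 11 were higher in diabetic KO, of 7 MHC class II genes 4 fell and 6 were higher, and of 8 dendritic cell genes 5 fell and 4 were higher. H2-Aa, an MHC class II chain, fell by 1.5 ± 0.29 (adjusted p = 0.00863), and Clec9a, a dendritic cell receptor gene, fell by 1.67 with an adjusted p of 0.00661. Ptprc, Itgax, Spi1 and Laptm5 are expressed by such cells too. Markers outside the leukocytes also differed between diabetic KO and diabetic wild type: 4 of 10 endothelial genes were higher and 0 lower, with a median of 0.54, and 5 of 10 fibroblast and pericyte genes were higher and 1 lower, with a median of 0.89. In wild-type diabetes 2 of those 10 fibroblast and pericyte genes fell. Of 6 erythroid genes 0 were higher by edgeR and 1 was lower, while their summed level ran from 187 to 727 CPM in WT_db and from 773 to 2505 CPM in KO_db. The part of these cells in the member values was not tested.

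Neither remaining kidney comparison gave a called member. For diabetes within the KO, edgeR, DESeq2 and limma called 0 of 29, with 1 at an unadjusted p under 0.05 and 0.077% of all genes called. In that comparison only Siglech had groups that did not overlap, higher in KO_db, against 2.05% of all genes higher without overlap. The smallest p belonged to Fcer1g, at 0.70 ± 0.30 (adjusted p = 0.33), and Siglech, at 0.98 ± 0.48 (adjusted p = 0.357). For KO against wild type in non-diabetic kidney all 3 tools also called 0 of 29, with 1 at an unadjusted p under 0.05 and 0.435% of all genes called. There 27 of 29 were above 0, against 49.0% of all genes, and only Itgam had groups that did not overlap, higher in KO_ndb, against 1.55% of all genes. Itgam had 0.62 ± 0.28 (adjusted p = 0.797) and Adgre1 0.68 ± 0.44 (adjusted p = 0.997). The test of the interaction, whether diabetes changed a gene differently in KO than in wild type, called 0 of 29 with edgeR, where 0.0% of all genes were called, 18 at an unadjusted p under 0.05 (29.2% of all genes), 11 with DESeq2 and 0 with limma. The smallest p belonged to Fcer1g, at 1.87 ± 0.43 (adjusted p = 0.0714), and Aif1, at 2.53 ± 0.60 (adjusted p = 0.0715). All 29 interaction estimates were above 0, against 52.8% of all genes. Leaving out K596 of KO_db gave 14 interaction calls and leaving out K559 of KO_ndb gave 5. The share of all genes called by DESeq2 or with these libraries left out is not given here. Those counts therefore need not be particular to the members.

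In wild-type retina 3 of 27 tested members fell with diabetes, against 1.19% of all 20979 genes called lower, and 0 rose, against 1.29%. Below 0 were 24 of 27 differences, against 49.9% of all genes. Lyz2 was at 2.67, 5.78 and 3.83 CPM in WT_ndb and 0.942, 2.02, 2.34 and 1.12 in WT_db, a fall by 1.35 ± 0.33 (adjusted p = 0.0453). Cd68 was at 2.92, 3.72 and 4.03 CPM in WT_ndb and 1.88, 1.23, 1.54 and 2.35 in WT_db, a fall by 1.02 ± 0.25 (adjusted p = 0.0479). Itgam was at 2.97, 3.62 and 3.19 CPM in WT_ndb and 2.43, 1.73, 2.09 and 1.91 in WT_db, a fall by 0.68 ± 0.17 (adjusted p = 0.0462). For all 3 genes every WT_db retina lay below every WT_ndb retina, as for 10 members in all, against 6.97% of all genes. The C1q chains had differences of -0.77 ± 0.22 (C1qa, adjusted p = 0.0719), -0.54 ± 0.22 (C1qb, adjusted p = 0.198) and -0.75 ± 0.23 (C1qc, adjusted p = 0.0887), and their WT_db retinas also lay wholly below WT_ndb. P2ry12 overlapped, at 3.29 to 3.96 CPM in WT_ndb and 2.28 to 4.43 in WT_db, as did Csf1r, at 15.4 to 17.7 and 10.8 to 18.3 CPM.

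These retinal calls lay close to the threshold. Lens genes summed to 1390, 872 and 83.1 CPM in WT_ndb retinas R812, R819 and R852. Their sum was 43.0 to 118 CPM in WT_db, 78.3 to 158 in KO_ndb and 454 to 1267 in KO_db. In wild-type diabetes 7 of 8 tested lens genes fell. Whether this signal came from lens tissue carried over at dissection was not tested. With the lens list as a covariate 0 members were called by edgeR and 3 were at an unadjusted p under 0.05, and the differences were -1.15 ± 0.45 for Lyz2 (adjusted p = 0.402), -1.13 ± 0.35 for Cd68 (adjusted p = 0.295) and -0.61 ± 0.24 for Itgam (adjusted p = 0.404). Of 10 endothelial genes 2 also fell, with 8 at an unadjusted p under 0.05 and a median of -0.43, and the median of 6 MHC class II genes was -0.81, with 0 called by edgeR and 3 at an unadjusted p under 0.05. The share of all genes at that unadjusted p is not given here. The part of endothelial and MHC class II genes in the member values was not tested. WT_ndb retina R852, whose lens sum lay within the WT_db range, had Lyz2 at 3.83, Cd68 at 4.03 and Itgam at 3.19 CPM. For these 3 genes WT_db lay below all WT_ndb retinas, so R852 had to lie above every WT_db retina. The part of lens tissue in the member values was not tested. Leaving out 1 retina library at a time gave 0 to 6 members called, and none was called each time; without R844 of WT_db, the 6 calls were 5 falls and a rise of Fcgr1.

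No member was called for diabetes in the KO retina, where edgeR called 0.0% of all genes, 0 of 27 members had an unadjusted p under 0.05, and DESeq2 and limma called 0. Between KO and wild type in non-diabetic retina edgeR called 0 of 27 members and 1.14% of all genes, 1 member had an unadjusted p under 0.05, and the other tools called 0. That member was Fcgr1, at 0.396, 0.685 and 0.393 CPM in WT_ndb and 2.36, 1.30, 0.933 and 1.47 CPM in KO_ndb, which did not overlap, against 6.9% of all genes higher without overlap (log2 difference 1.61 ± 0.50, adjusted p = 0.157). In diabetic mice edgeR called 0 of 27, against 1.78% of all genes, with 8 at an unadjusted p under 0.05, 1 by DESeq2 (Lyz2) and 0 by limma. The share of all genes at that unadjusted p or called by DESeq2 is not given here. Above 0 were 25 of 27 differences, against 48.5% of all genes. The smallest p belonged to Itgam, at 0.55 ± 0.17 (adjusted p = 0.116), and Lyz2, at 1.09 ± 0.33 (adjusted p = 0.12). C1qa, Itgam, Mpeg1 and Cx3cr1 had every KO_db retina above every WT_db retina, 4 of 27 members against 6.38% of all genes. The retinal interaction gave 0 calls by all 3 tools, 0.124% of all genes and 2 members at an unadjusted p under 0.05, with Itgam first at 0.75 ± 0.23 (adjusted p = 0.287).

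The organs were set against each other in the joint fit. The wild-type diabetes difference was lower in kidney than in retina for 3 of 31 members, against 1.77% of all genes, and higher for 0, against 1.21%: Fcgr1 by -3.31 ± 0.76 (adjusted p = 0.0166), Csf1r by -1.43 ± 0.33 (adjusted p = 0.0183) and Ptprc by -1.60 ± 0.43 (adjusted p = 0.0387). For Csf1r the kidney groups did not overlap while the retina groups did, and Fcgr1 ran from 0.393 to 0.685 CPM in WT_ndb and from 0.347 to 2.44 CPM in WT_db retina. The difference of KO from wild type in diabetic mice was higher in kidney for 4 members, against 3.4% of all genes, and lower for 0, against 1.63%: Aif1 by 2.29 ± 0.65 (adjusted p = 0.0405), Csf1r by 1.29 ± 0.33 (adjusted p = 0.0253), Laptm5 by 1.08 ± 0.29 (adjusted p = 0.032) and Fcer1g by 1.64 ± 0.43 (adjusted p = 0.0286). With the animal as a block, which left 5 residual degrees of freedom, no member was called in either comparison, and the Fcgr1 difference turned to 0.24.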

How the data were processed

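Total RNA was taken by Trizol from flash-frozen organs and sequenced on a BGISEQ-500, per the labels' protocols. The submitters' processing notes name Trim Galore 0.6.4 for trimming, kallisto (version given as 0.4.6) for quantification and the build GRCm38.p6. The authors deposited, per library, estimated counts (expected counts, not whole numbers throughout) and TPM per gene. Of 55385 gene identifiers, 54487 were matched to symbols with their version, 657 without it and 241 not at all. The 31 members and all other lists were chosen with earlier results of these data known.

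Expected counts were rounded, genes of low count removed with filterByExpr, and libraries scaled by TMM. The edgeR 4.0.16 quasi-likelihood test (R 4.3.3) was fitted over the 4 groups of each organ, on 18177 genes in kidney and 20979 in retina, and over all 30 libraries for organ comparisons, on 23021 genes. P-values were adjusted by Benjamini-Hochberg over all tested genes, with calls at 0.05, and SE is the log2 difference divided by the square root of F. Msr1 and P2ry12 in kidney and Itgax, Mrc1, Cd163 and Msr1 in retina did not pass the filter. In each comparison called members were named, with the members of smallest p where none was called; other members were named by level. From each other list at most 3 called genes of smallest p were named. Counts at an unadjusted p under 0.05 have the share of all genes beside them only for the kidney interaction. Alternatives used DESeq2 1.42.0, limma 3.58.1 on log2(TPM + 1), other scaling, no filter, only the groups compared, covariates for sex by transcripts (15 male and 15 female libraries), mitochondrial share, fat or lens genes, and left-out libraries. The fat marker covariate (Adipoq, Plin1, Cidec) was added after seeing the data. The tests were checked on simulated counts. Their spread between libraries was set below that estimated in the kidney fit and the joint fit, so that check was easier than those data. The labels do not say that same-group libraries came from separate litters, so p-values measure the spread between these libraries. Precision is limited by totals of 19870485 to 22643055 counts. Libraries with the same number in their titles, read as the same animal, correlated by 0.0189 to 0.0915 in their deviations, with 0 of 9 pairs above 0.1.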

Additional observations from a re-analysis of the deposited data

Results flagged for a closer look

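In groups of 4 libraries, 21 of 170 sets of member values had 1 library far from the other 3 by Dixon's test. For a single set of normally distributed values chance gives about 1 in 20. The sets share libraries and are not independent, so their count cannot be judged against that rate. KO_ndb kidney K559 was the high library for 8 members: Spi1 at 4.40 CPM (others 2.50 to 2.77), Fcgr1 at 2.38 (0.834 to 0.884), C1qb at 22.6 (13.1 to 14.4), C1qc at 14.4 (7.95 to 9.03), Itgam at 2.34 (1.08 to 1.23), Cd68 at 5.35 (3.19 to 3.39), Ctss at 16.0 (7.07 to 8.30) and Cd53 at 6.45 (2.95 to 3.44). WT_db kidney K844 was high for Fcer1g at 5.15 CPM (2.11 to 2.55), C1qa at 8.99 (4.00 to 4.81), C1qb at 10.7 (4.94 to 5.90) and C1qc at 7.2 (3.68 to 4.13). In KO_db kidney K596 Ctss was high at 16.1 CPM (8.91 to 9.93) and Cd53 low at 3.89 (5.20 to 5.45). In WT_ndb kidneys C1qc was high in K834 at 13.2 CPM (6.39 to 7.54), and Mrc1 was low in K812 at 1.67 (2.13 to 2.16).

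In retina KO_ndb library R590 was high for Fcgr3 at 1.56 CPM (1.26 to 1.30) and Aif1 at 0.977 (0.350 to 0.453), and KO_ndb library R560 was low for C1qb at 4.10 (7.17 to 7.47). WT_db library R915 was low for Tyrobp at 0.543 CPM (1.14 to 1.24), and WT_db library R942 was low for Siglech at 1.49 (2.05 to 2.13).

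The tests of a difference between organs picked out 7 values, as log2 difference in kidney minus that in retina. For wild-type diabetes they were Fcgr1 at -3.31, Csf1r at -1.43 and Ptprc at -1.60. For KO against wild type in diabetic mice they were Aif1 at 2.29, Csf1r at 1.29, Laptm5 at 1.08 and Fcer1g at 1.64.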

How the results depend on the processing

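Numbers of members called are given here by setting. The share of all genes called in each setting is not given, so a lower count need not be particular to the members. For diabetes in wild-type kidney (11 called), limma on TPM gave 2, the fat list as covariate 0, the fat markers 1, and leaving out K861 and K591 together 6; leaving out 1 library gave 3 to 16. For KO against wild type in diabetic kidney (22), limma gave 6 and leaving out 1 library 15 to 23. For the kidney interaction (0), DESeq2 gave 11, a sex covariate 11 and leaving out 1 library 0 to 14. For diabetes in wild-type retina (3), DESeq2 gave 5 and a sex covariate 2. There limma, only the groups compared, the mitochondrial covariate and the lens covariate each gave 0, and leaving out 1 library gave 0 to 6. A setting without R915, R942 and R954 left R844 as the only WT_db retina, so its counts of calls are not given. For the non-diabetic knockout in retina (0), leaving out 1 library gave 0 to 1. For the diabetic knockout in retina (0), DESeq2 gave 1 and leaving out 1 library 0 to 2. Diabetes in KO kidney, the non-diabetic knockout in kidney, diabetes in KO retina and the retinal interaction stayed at 0 calls when any 1 library was left out. The cause of these changes was not tested.

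Between organs (28), limma gave 16 and leaving out 1 library 26 to 28; under limma C1qc turned to -0.052, Cd14 to -0.13, Cd68 to -0.72 and Cx3cr1 to -0.72. For the wild-type diabetes difference between organs (3), limma and the replicate block by animal each gave 0, leaving out 1 library 0 to 4, and the block turned Fcgr1 to 0.24. For the knockout difference between organs (4), no filter gave 2, limma 0, the block 0 and leaving out 1 library 0 to 10. Same-numbered libraries came from different organs and were read as 1 animal, which the labels do not state, and the block left 5 residual degrees of freedom. Members under 1 CPM in every library, such as Msr1 and P2ry12 in kidney, rest on few counts, so small differences in them were not detectable at this depth.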
